A study of Mus musculus with 6 samples.

Results

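The Zfp genes described here are the mouse zinc finger genes that liver RNA sequencing measured with solid counts. A gene was taken when its symbol was Zfp followed by a digit and it had at least 100 raw fragments in each of the 6 libraries. Zfp36, Zfp36l1 and Zfp36l2, which encode RNA-binding proteins with a different type of finger, were left out. Of 412 Zfp genes in the table of 48432 genes, 223 met the rule and 189 did not. Members were thus chosen by their raw fragments in the libraries of both groups, and no test of the difference between the groups entered the rule. A floor in each library still leaves out genes that were under it in 1 group, so it bears on how many members could fall far. Just inside the floor were Zfp418 and Zfp964, each with 100 fragments in its lowest library, and Zfp59 with 101. Just outside it were Zfp125 with 97, Zfp939 with 98 and Zfp366 with 99.

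The libraries came from livers of 10-week-old mice of 2 groups. Ctl mice (n = 3 libraries) carried the Albumin-Cre transgene, in which the albumin promoter drives Cre recombinase in hepatocytes. Li-KO mice (n = 3 libraries) lacked Klf15, a transcription factor of the Kruppel-like family, in the liver only, and liver cells in which Cre is not active can still carry the gene. The sources used here do not say whether the Ctl mice carried unrecombined Klf15 alleles or whether each library came from a separate mouse. P-values then cover only the variation among these libraries, which may be technical.

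Most Zfp genes encode C2H2 zinc finger proteins, in which a pair of cysteines and a pair of histidines hold a zinc ion and successive fingers read successive bases of DNA. Many of them also carry a KRAB box, a short N-terminal domain that binds the corepressor TRIM28 (KAP1), which recruits the histone methyltransferase SETDB1 and heterochromatin protein. KRAB zinc finger genes arose in clusters of tandem copies, and their best known role is the silencing of retroelements and imprinted loci. A zinc finger protein without a KRAB box can activate or repress transcription, bind RNA or act as a subunit of a chromatin complex.

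Promoter sequences were taken from RefSeq (GRCm38.p6, the mm10 assembly), which held an entry by symbol for 187 of the 223 genes. The 4 printed here belong to the Zfp gene with the largest fold change (Zfp275), to 2 KRAB genes that fell (Zfp141, and Zfp945 of a chromosome 17 cluster) and to 1 gene that rose (Zfp768). Each covers the 250 bases before the most upstream start of the gene listed in RefSeq, read on the strand of the gene. GENCODE starts can lie further upstream, so a window can hold transcribed sequence. The window of Zfp768 lies within its GENCODE span (127342795 to 127345589). So does that of Zfp652 (window 95748817 to 95749066, span 95712673 to 95835115). The same holds for Zfp229, Zfp629 and Zfp788, and windows of further called genes, among them Zfp787 and Zfp839, overlap their spans in part. All of these are counted in the shares below, which thus do not rest on upstream sequence alone. Capitals mark the GC box GGGCGG, bound by Sp and Kruppel-like factors in general, and the CACCC box, another site of Kruppel-like factors, each on either strand, and overlapping matches run together. Zfp275 lay at chrX:73342370-73342619 on the plus strand and held 2 GC boxes and 2 CACCC boxes. Zfp141 lay at chr7:42505754-42506003 on the minus strand and held neither. Zfp945 lay at chr17:22867135-22867384 on the minus strand and held 1 GC box and 4 CACCC boxes. Zfp768 lay at chr7:127345315-127345564 on the minus strand and held 3 GC boxes and 1 CACCC box.
Zfp275: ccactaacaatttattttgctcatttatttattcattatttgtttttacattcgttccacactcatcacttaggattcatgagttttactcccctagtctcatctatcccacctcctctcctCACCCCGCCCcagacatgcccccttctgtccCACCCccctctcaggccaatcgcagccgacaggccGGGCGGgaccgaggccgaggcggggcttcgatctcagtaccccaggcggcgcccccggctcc
Zfp141: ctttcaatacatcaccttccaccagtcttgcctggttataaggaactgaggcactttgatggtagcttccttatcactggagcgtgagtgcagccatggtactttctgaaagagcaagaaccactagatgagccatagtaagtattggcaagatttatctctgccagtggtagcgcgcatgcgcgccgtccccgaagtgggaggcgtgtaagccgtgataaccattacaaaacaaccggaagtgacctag
Zfp945: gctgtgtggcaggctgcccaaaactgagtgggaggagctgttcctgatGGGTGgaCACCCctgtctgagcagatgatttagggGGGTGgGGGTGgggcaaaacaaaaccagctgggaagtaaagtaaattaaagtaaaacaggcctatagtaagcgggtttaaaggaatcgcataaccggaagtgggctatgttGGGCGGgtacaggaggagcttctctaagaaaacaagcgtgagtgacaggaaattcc
Zfp768: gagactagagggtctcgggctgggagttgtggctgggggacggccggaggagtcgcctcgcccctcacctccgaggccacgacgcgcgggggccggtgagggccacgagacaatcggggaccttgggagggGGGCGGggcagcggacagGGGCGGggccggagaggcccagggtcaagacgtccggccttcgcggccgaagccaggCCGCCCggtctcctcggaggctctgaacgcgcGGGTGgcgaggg

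A GC box was found in 44.9% of the promoters of the Zfp genes and in 57.2% of those of all tested genes with an entry (10875 promoters). For the CACCC box the shares were 49.7% and 57.2%. The 100 promoters of genes with a KRAB box held them in 33.0% and 42.0%, close to or under the shares over all 27025 promoters in the table, which were 33.0% and 51.3%. Their median GC content was 51.6%, against 59.6% in the promoters of all tested genes, and both boxes are rich in G and C. Among the 20 genes that fell and have an entry, 11 promoters (55.0%) held a GC box and 11 (55.0%) a CACCC box, and among the 4 that rose and have an entry, 2 (50.0%) and 3 (75.0%) did. A match is a run of letters in this window and was not tested as a binding site. Zfp40, Zfp182, Zfp609 and Zfp870 are named only.

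Library totals ran from 30132496 to 42782324 counts. The Zfp genes took 0.577%, 0.621% and 0.592% of these in the Ctl libraries, lower shares of 0.494%, 0.530% and 0.543% in the Li-KO libraries. Here and in what follows, values of a group are listed in the order of its replicates 0, 1 and 2. The targeted gene, Klf15, was at 174 to 345 CPM (counts relative to a library total scaled by TMM) in Ctl and at 41.6 to 54.3 CPM in Li-KO, a log2 fold change of -2.28 ± 0.26 (SE; adjusted p = 0.00275). Hepatocyte markers summed to 26218 to 35613 CPM in Ctl and 29959 to 34832 CPM in Li-KO, with Alb, Cps1, Trf and Serpina1a listed at 0 because the quantification had skipped them. Of the 9 measured, Tdo2 was called lower (log2 fold change -2.14, adjusted p = 0.00179) and Asgr2 higher (0.59, adjusted p = 0.0162). These were 22.2% of the list, against 12.0% of all genes tested. Markers of other cells differed between libraries. The 11 stellate cell and fibroblast markers summed to 840 CPM in Li-KO replicate 0 and to 687 to 792 CPM elsewhere. Among them Col3a1 was at 237 CPM in that library and at 40.3 to 91.8 CPM elsewhere. Of the 11, 5 had log2 fold changes below 0, and Hand2 was called lower (9.09% called). The 9 measured lymphocyte markers summed to 15.6 CPM in Li-KO replicate 0 and to 3.65 to 6.08 CPM in the other 5 libraries. Of the cholangiocyte markers, Spp1 was at 144 CPM in Li-KO replicate 0 and at 18.9 to 56.8 CPM elsewhere. The other 8 summed to 20.5 to 21.4 CPM over the 3 Li-KO libraries and to 26.9 to 38.1 CPM over the Ctl libraries. That sum held Sox9, called lower, at 11.7, 15.8 and 16.6 CPM in Ctl against 3.32, 3.05 and 2.09 CPM in Li-KO. Over all 9 cholangiocyte markers the median log2 fold change was 0.63, with 3 below 0. The 7 erythroid markers moved with the group. They summed to 743 to 814 CPM in Ctl and to 593, 296 and 476 CPM in the Li-KO libraries, all 7 had log2 fold changes below 0 (median -0.72), and their adjusted p was 0.0601 or more. The part of these markers in the Zfp results was not tested. In bulk liver, fewer cells of a type and less RNA per cell cannot be told apart.

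Zfp genes were expressed at a modest level. The mean FPKM (fragments scaled to gene length and depth) over the 6 libraries ran from 0.453 for Zfp334 to 41.5, with a median of 3.47, against a median of 8.87 over all 10659 tested genes that met the same floor. The highest was Zfp445, which keeps imprinted loci silenced together with Zfp57, at 35.0, 34.9 and 39.9 FPKM in Ctl, against 44.5, 55.9 and 38.9 FPKM in Li-KO. Zfp970 followed with 20.8 to 38.7 FPKM in Ctl and 35.9 to 65.1 FPKM in Li-KO. Zfp207 (BuGZ), a kinetochore and spindle protein, had 32.2 to 43.8 FPKM in Ctl and 28.6 to 34.1 FPKM in Li-KO. Zfp950 had 25.3 to 55.2 FPKM and 23.0 to 30.8 FPKM. Zfp91, a ubiquitin ligase that acts on the kinase NIK, had 29.3 to 32.3 FPKM and 19.1 to 25.5 FPKM. The ranges of neighbours in this order overlapped, so the order of the 5 is not separated by their spread. Of the 5, the groups did not overlap on the CPM scale for Zfp445, Zfp950 and Zfp91, and none passed the test of the difference (adjusted p of 0.163, 0.0535 and 0.0591, and of 0.106 for Zfp970 and 0.177 for Zfp207).

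A KRAB box pattern was found in the translated GENCODE coding sequences of 113 of the 222 protein-coding members. The other 109 held no match to it, which does not exclude divergent KRAB boxes, and the remaining member, Zfp862-ps, is a pseudogene. Genes with the pattern had more fingers, with a median of 12 against 7, and a lower level, with a median of 2.66 FPKM against 4.73 FPKM. The largest number of fingers was 36, in Zfp142.

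Among the 223 Zfp genes, 23 fell and 5 rose in Li-KO liver. Together they were 12.6% of the members, near the share of all 16533 genes tested (percent called 12.0) and below that of all tested genes with the same floor (15.5%). The directions were divided otherwise. Of the Zfp genes 10.3% were lower and 2.24% higher, while of all genes tested 5.90% were lower and 6.11% higher, and of the genes with the same floor 7.34% and 8.21%. The difference between these divisions was not tested. Of the 223 Zfp genes, 60 were lower and 21 higher in Li-KO with groups that did not overlap. Among all genes tested the shares without overlap were 17.8% lower and 17.4% higher. Among genes with the same floor they were 19.2% and 22.1%. The median log2 fold change was -0.12 over the Zfp genes, with 149 of 223 below 0, against -0.01 over all genes tested and 0.01 over the genes with the same floor. No Zfp gene rose by 2-fold or more, and 7 fell by that much.

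Calls depended on single libraries. Without Ctl replicate 0, 15 Zfp genes were lower and 2 higher (all genes tested 3.55% and 4.15%). Without Ctl replicate 1 the counts were 3 and 1 (1.37% and 1.16%), and without Ctl replicate 2 they were 5 and 1 (2.28% and 1.50%). Without Li-KO replicate 0 they were 11 and 3 (3.27% and 3.99%), without Li-KO replicate 1 they were 3 and 0 (1.46% and 1.32%), and without Li-KO replicate 2 they were 43 and 5 (8.47% and 6.45%). All 28 genes kept the direction of their change in each of these 6 fits. Zfp275, Zfp141 and Zfp367 kept their call in each, and the other 25 lost it in at least 1. These fits rest on 5 libraries each.

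**Figure D1:**
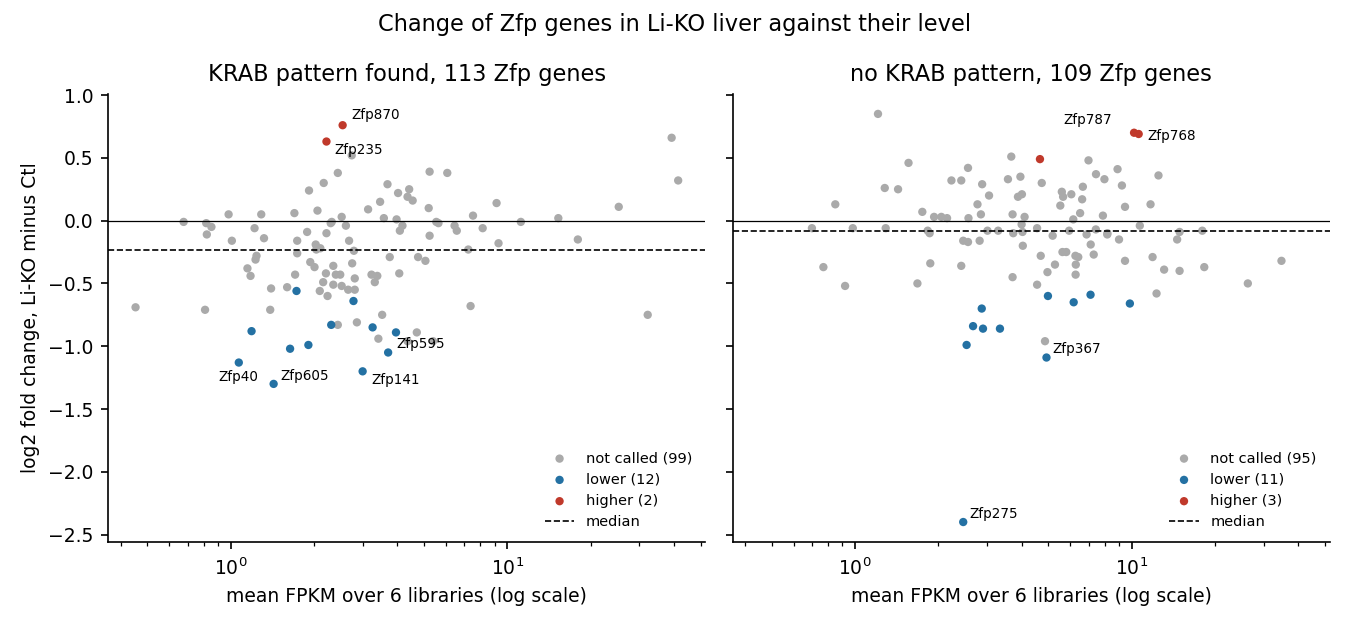
Log2 fold change (Li-KO minus Ctl) of each protein-coding Zfp gene against its mean FPKM over the 6 libraries on a log axis, with genes in which a KRAB pattern was found on the left (113) and the others on the right (109). Blue points passed the test as lower (12 and 11), red points as higher (2 and 3), grey points did not pass, and the dashed line is the median, at -0.23 on the left and -0.08 on the right.

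Zfp275 changed most. It is an X-linked gene (chromosome X, 73342621 to 73359080, plus strand, mm10) whose protein of 499 residues holds 11 C2H2 fingers. Its level was 40.3, 35.8 and 31.0 CPM in Ctl, against 6.90, 7.07 and 6.27 CPM in Li-KO. Every Li-KO library was far below the lowest Ctl library. The decrease was 5.29-fold, a log2 fold change of -2.40 ± 0.15 (SE) with an adjusted p of 0.000445. Over the 6 fits without a library it stayed between -2.50 and -2.31, with an adjusted p of at most 0.00314. The log2 fold change of Klf15 itself was -2.28.

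The other 2 decreases that held in every such fit were smaller. Zfp141, a KRAB gene on chromosome 7 with 10 fingers, was at 25.5, 25.2 and 26.5 CPM in Ctl, against 9.12, 12.9 and 11.5 CPM in Li-KO. The groups were well apart, and the log2 fold change was -1.20 ± 0.16 (adjusted p = 0.0045, at most 0.0273 without a library). Zfp367, on chromosome 13, encodes a short protein with 2 fingers that has been linked to the cell cycle. Its level was 27.4, 30.4 and 28.6 CPM in Ctl, against 13.3, 10.8 and 16.3 CPM in Li-KO, a log2 fold change of -1.09 ± 0.17 (adjusted p = 0.00823, at most 0.0431 without a library).

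4 more genes fell by 2-fold or more, and each is a KRAB gene. Zfp605 had 7.48, 9.28 and 12.5 CPM in Ctl, against 3.28 to 4.57 CPM in Li-KO (log2 fold change -1.30 ± 0.25, adjusted p = 0.0158). Zfp40 had 6.93, 11.1 and 8.70 CPM against 3.63 to 4.74 CPM (-1.13 ± 0.23, adjusted p = 0.0213). Zfp595 had 21.2, 26.9 and 31.5 CPM against 9.28, 14.0 and 15.1 CPM (-1.05 ± 0.22, adjusted p = 0.0222). In these genes the Ctl libraries were themselves spread, with Ctl replicate 0 the lowest. Zfp788 had 8.77, 10.4 and 9.42 CPM against 3.93, 4.43 and 5.69 CPM (-1.02 ± 0.20, adjusted p = 0.0185). The calls of these 4 ended in 3 or 4 of the 6 fits without a library, with adjusted p of up to 0.0663, 0.0998, 0.0865 and 0.091.

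All 3 members on the X chromosome fell. Beside Zfp275 they were Zfp280c, with 14.6, 21.0 and 21.0 CPM in Ctl, against 9.06, 11.0 and 11.6 CPM in Li-KO (log2 fold change -0.84 ± 0.19, adjusted p = 0.0289), and the KRAB gene Zfp182, with 11.2, 15.8 and 15.1 CPM against 7.99, 7.16 and 8.58 CPM (-0.83 ± 0.18, adjusted p = 0.027). Over all 523 tested genes of that chromosome, 8.99% were lower and 3.82% higher. The Y-linked Ddx3y was at 162 to 198 CPM in Ctl and 121 to 171 CPM in Li-KO, so each library held reads of the Y chromosome.

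**Figure D2:**
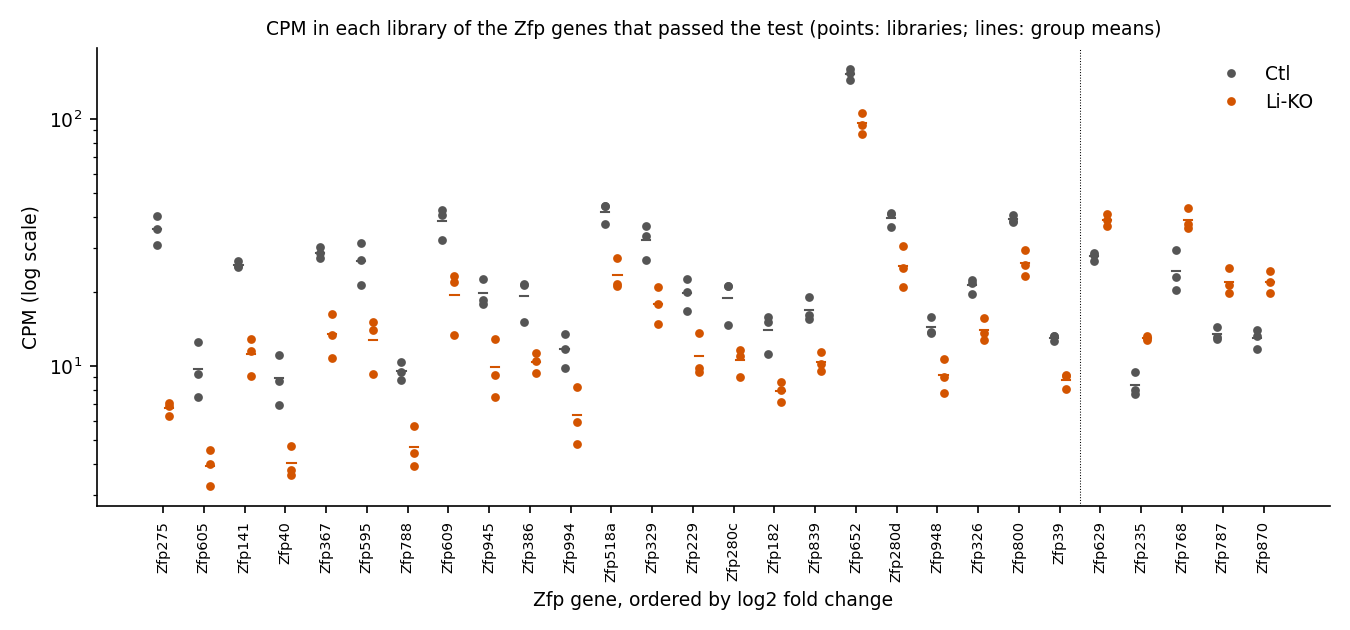
CPM on a log axis in each library for the 28 Zfp genes that passed the test, ordered by log2 fold change, with Ctl in grey and Li-KO in orange, points for libraries and short lines for group means. The 23 genes left of the dotted line were lower in Li-KO and the 5 to its right higher, Zfp275 lies at the far left with Ctl between 31.0 and 40.3 CPM and Li-KO between 6.27 and 7.07 CPM, and in no gene do the groups overlap.

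The 5 genes that rose did so by less than 2-fold. Zfp870, a KRAB gene on chromosome 17, was at 11.7, 13.2 and 14.0 CPM in Ctl, against 21.9, 24.2 and 19.8 CPM in Li-KO (log2 fold change 0.76 ± 0.14, adjusted p = 0.0158). The other 4 lie on chromosome 7. Zfp787, with 7 fingers and no KRAB pattern, had 13.1, 14.4 and 12.9 CPM against 21.2, 24.9 and 19.7 CPM (0.70 ± 0.14, adjusted p = 0.0205). Zfp768 had 20.3, 29.4 and 23.0 CPM against 37.6, 43.8 and 36.1 CPM (0.69 ± 0.16, adjusted p = 0.0325). In these 3 genes the groups did not overlap, while libraries of the same group were themselves spread, most in Zfp768. The KRAB gene Zfp235 had 7.72, 7.97 and 9.42 CPM against 13.0, 12.7 and 13.2 CPM (0.63 ± 0.15, adjusted p = 0.0348), and Zfp629, with 19 fingers, had 28.6, 28.1 and 26.6 CPM against 36.9, 39.1 and 41.1 CPM (0.49 ± 0.11, adjusted p = 0.0308). Zfp870 kept its call in 4 of the 6 fits without a library, Zfp787, Zfp768 and Zfp629 in 2 and Zfp235 in 0, with adjusted p of up to 0.0703, 0.0843, 0.116, 0.104 and 0.125.

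KRAB genes, which act through TRIM28, were compared with the other Zfp genes as a description. Of the 113 with the pattern, 12 fell and 2 rose (12.4% together), with a median log2 fold change of -0.23 and 84 below 0. Of the 109 without it, 11 fell and 3 rose (12.8%), with a median of -0.08 and 64 below 0. The share that passed was thus about the same in both. The medians were closer with limma on FPKM, at -0.11 for the KRAB genes and -0.09 for the others. Library by library, the median log2 ratio of the KRAB genes to their mean over the 6 libraries was 0.09, 0.14 and 0.20 in the Ctl libraries, against -0.33, -0.09 and 0.03 in the Li-KO libraries, where replicate 0 was the lowest. For the genes without the pattern it was 0.00, 0.07 and 0.05, against -0.06, 0.00 and -0.05.

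The medians of the log2 fold changes moved with single libraries, in both directions. Without Li-KO replicate 0, the median log2 fold change was -0.09 for the KRAB genes, -0.01 for the genes without the pattern and -0.05 for all 223 Zfp genes, with 121 of 223 below 0. Without Li-KO replicate 2 it was -0.29 for the KRAB genes, -0.03 for the genes without the pattern and -0.20 for all 223. Genes without the pattern were also at -0.03 without Ctl replicate 1. The spread among Li-KO libraries was also wider for Zfp genes than for other genes, with a median coefficient of variation of 17.2% against 13.1% over all genes with the same floor, while in Ctl the values were 11.1% and 10.6%.

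**Figure D3:**
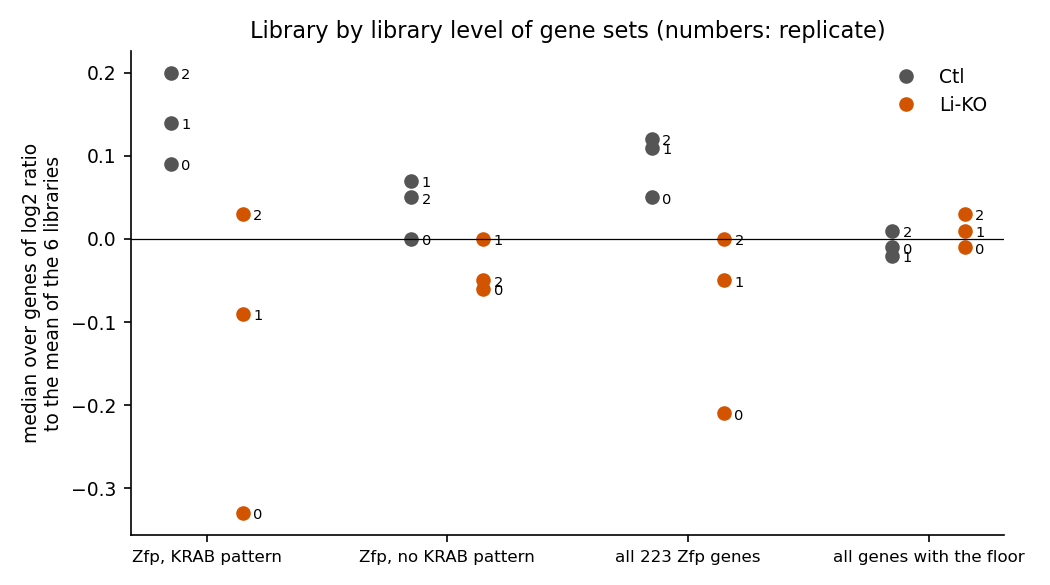
Median over genes of the log2 ratio of CPM in 1 library to the mean over the 6 libraries, for Zfp genes with and without a KRAB pattern, for all 223 Zfp genes and for all tested genes with the same floor, with Ctl in grey, Li-KO in orange and the replicate number beside each point. Li-KO replicate 0 is lowest among the KRAB genes, at -0.33, while among all genes with the floor the 6 libraries lie between -0.02 and 0.03.

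Many Zfp genes lie next to each other. A cluster was taken as a run of at least 4 members, each within 500 kb of the next, and 12 clusters held 89 members. The 2 clusters with the lowest median log2 fold change and the 1 with the highest are described, a choice made after the values were seen, and the medians of the other clusters ran from -0.42 to 0.06. On chromosome 17, between 21008903 and 23564238 (mm10), 13 of 14 members carried a KRAB pattern, and the same number had a log2 fold change below 0, with a median of -0.86. Zfp948, Zfp229, Zfp994, Zfp945 and Zfp40 fell, 5 of the 14. Over all genes tested 5.90% were lower and 50.8% had a log2 fold change below 0. Among genes with the same floor the shares were 7.34% and 48.7%. Zfp945 had 17.9, 18.5 and 22.6 CPM in Ctl, against 9.22, 7.51 and 12.9 CPM in Li-KO (log2 fold change -0.99 ± 0.21, adjusted p = 0.0251), and Zfp229 had 16.7, 22.6 and 19.9 CPM against 9.83, 9.44 and 13.6 CPM (-0.85 ± 0.19, adjusted p = 0.0286). Zfp948 and Zfp994, at -0.64 ± 0.17 and -0.88 ± 0.23 (adjusted p = 0.045 for each), were named after their values were seen. The member on the other side of 0 was Zfp213, also named for its value, which is at the end of the run, has no KRAB pattern and had a log2 fold change of 0.51 (adjusted p = 0.151).

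Single libraries bore on this cluster as well. Its median was -0.62 without Li-KO replicate 0, with 12 of 14 below 0. It was -1.17 without Li-KO replicate 2, when 11 members passed (8.47% of all genes tested were lower). No member passed without Ctl replicate 1, Ctl replicate 2, Li-KO replicate 0 or Li-KO replicate 1. Without Ctl replicate 0, 3 did (3.55% of all genes tested were lower). Members of such clusters are near copies of each other. The sources used here do not tell how reads matching more than 1 copy were shared out, so the division of counts among the copies is uncertain.

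The cluster on chromosome 13, between 67121660 and 67729173, held 12 members, all with the KRAB pattern. All 12 log2 fold changes were below 0, with a median of -0.45. Zfp595 was the 1 that passed (lower were 5.90% of all genes tested and 7.34% of those with the floor). Without Li-KO replicate 0 the median was -0.21, with 8 of 12 below 0. On chromosome 7, between 127233061 and 127885996, 7 members, 1 of them with the KRAB pattern, had log2 fold changes above 0, with a median of 0.32, and Zfp768 and Zfp629 passed. The median there ran from 0.21 to 0.48 over the fits without a library, in each of which the 7 values stayed above 0. Of the 7, 2 rose, against 6.11% of all genes tested and 8.21% of those with the floor.

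**Figure D4:**
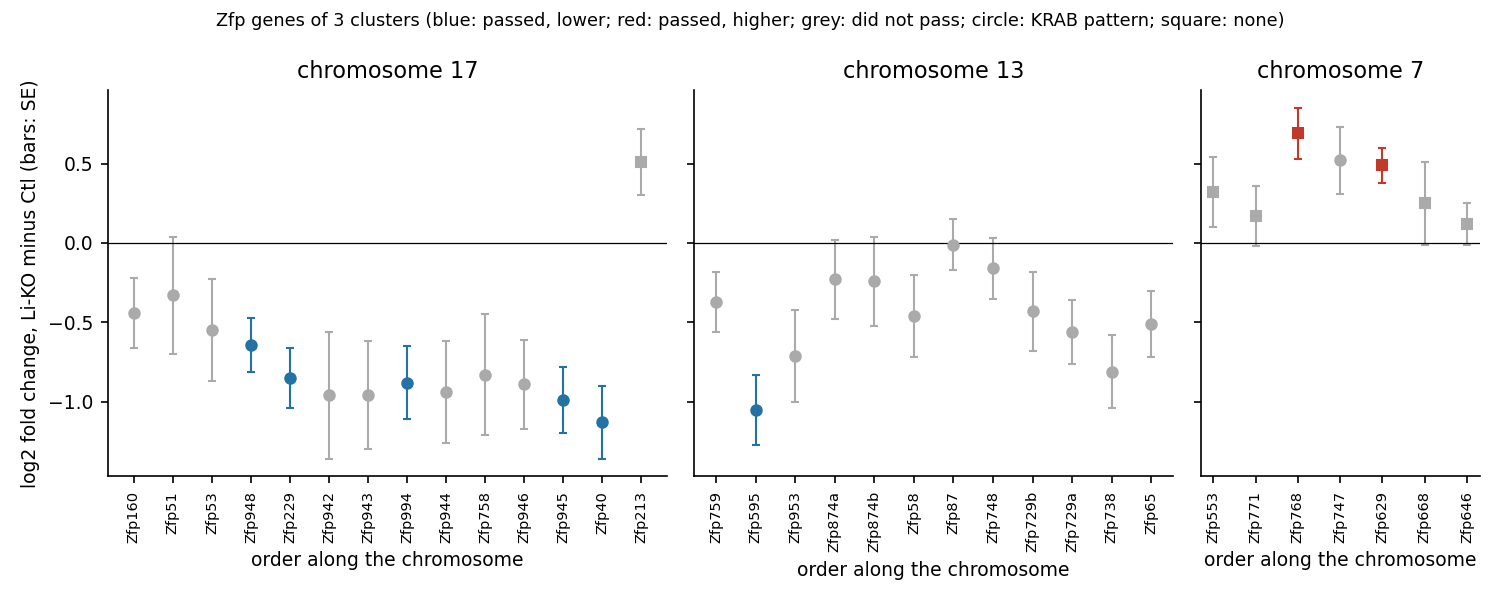
Log2 fold change (Li-KO minus Ctl) with its SE for the Zfp genes of 3 clusters in their order along chromosomes 17, 13 and 7, with blue for genes that passed as lower, red for genes that passed as higher, grey for genes that did not pass, circles for a KRAB pattern and squares for none. On chromosome 17 all but Zfp213 lie below 0, on chromosome 13 all 12 do, and on chromosome 7 all 7 lie above 0.

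Members with known roles were grouped into 4 lists, to be read against 12.0% called among all genes tested (5.90% lower, 6.11% higher) and 15.5% among genes with the same floor. Of the 6 members listed as silencers of retroelements or imprinted loci, each with the KRAB pattern, 0 passed the edgeR test, while 2 had an unadjusted p under 0.05 and 1 passed with DESeq2. Zfp568, which represses a placental promoter of Igf2, had 46.5, 44.1 and 42.6 CPM in Ctl, against 56.6, 64.2 and 52.9 CPM in Li-KO (log2 fold change 0.38 ± 0.12, adjusted p = 0.0708). Zfp445 was at 149, 147 and 170 CPM against 184, 227 and 172 CPM (0.32 ± 0.14, adjusted p = 0.163). In both genes the Li-KO libraries lay above the Ctl libraries without passing. Zfp617 was at 11.1, 13.9 and 14.4 CPM against 8.25, 10.1 and 12.9 CPM (-0.34 ± 0.20, adjusted p = 0.31), with overlapping groups.

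Among 12 members listed as partners of chromatin complexes, 2 fell and 0 rose (16.7% called). Zfp518a had 44.6, 44.5 and 37.5 CPM in Ctl, against 21.1, 21.5 and 27.3 CPM in Li-KO (log2 fold change -0.86 ± 0.15, adjusted p = 0.0121). Zfp609, which binds the Integrator complex and the cohesin loader, had 42.9, 40.7 and 32.4 CPM against 13.3, 23.1 and 21.8 CPM (-0.99 ± 0.22, adjusted p = 0.0261). Their calls ended in 2 and 4 of the fits without a library, with adjusted p of up to 0.0603 and 0.1. Zfp532, of the same protein complex as Zfp592 and Zfp687, had 6.21, 7.80 and 5.89 CPM against 18.1, 10.2 and 7.68 CPM (0.85 ± 0.31, adjusted p = 0.106). Its high value was again in Li-KO replicate 0, and the groups overlapped.

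Of 16 members listed as other transcription factors, 2 of which (Zfp1 and Zfp111) turned out to carry the KRAB pattern, 1 fell and 0 rose (6.25% called). Zfp652, a partner of the corepressor CBFA2T3, was at 153, 160 and 144 CPM in Ctl, against 94.8, 87.1 and 106 CPM in Li-KO (log2 fold change -0.66 ± 0.12, adjusted p = 0.0138, at most 0.0708 without a library). Zfp91 had 217, 214 and 237 CPM against 136, 149 and 188 CPM (-0.50 ± 0.15, adjusted p = 0.0591). Zfp467, which favours adipocyte over osteoblast differentiation, had 26.1, 34.0 and 24.0 CPM against 22.3, 18.0 and 15.9 CPM (-0.58 ± 0.18, adjusted p = 0.0733). Neither of these passed, although the groups did not overlap.

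Of 16 members listed for RNA, ribosomes and other roles, 1 fell and 0 rose (6.25% called). Zfp326, a subunit of the DBIRD complex that couples splicing to transcription, had 22.3, 21.7 and 19.6 CPM in Ctl, against 12.7, 13.6 and 15.7 CPM in Li-KO (log2 fold change -0.60 ± 0.14, adjusted p = 0.0313, up to 0.119 without a library). Zfp706 had 98.8, 93.4 and 81.1 CPM against 63.2, 64.4 and 79.2 CPM (-0.40 ± 0.13, adjusted p = 0.0872). Zfp106, an RNA-binding protein needed in motor neurons and muscle, had 232, 249 and 293 CPM against 183, 205 and 210 CPM (-0.37 ± 0.13, adjusted p = 0.101).

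The remaining decreases that the naming rule took were Zfp386 (log2 fold change -0.89 ± 0.18, adjusted p = 0.0201), Zfp329 (-0.86 ± 0.17, adjusted p = 0.0201), Zfp839 (-0.70 ± 0.15, adjusted p = 0.026), Zfp280d (-0.65 ± 0.16, adjusted p = 0.0357) and Zfp800 (-0.59 ± 0.13, adjusted p = 0.026). Zfp39, outside the rule and named to complete the list, was at -0.56 ± 0.15 (adjusted p = 0.0421). Each lost its call in at least 3 of the 6 fits without a library. Among the genes that passed, Zfp652, Zfp280d, Zfp326 and Zfp800 overlap another gene with counts on the same strand, where the strand cannot separate the reads. Zfp605 and Zfp839 overlap one on the other strand only. The sources used here do not say whether the counting used the strand, so reads of those partners cannot be told apart either.

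The corepressor pathway of the KRAB proteins was measured through a list of 29 tested genes, of which 1 rose and 3 fell, together 13.8% (all genes tested 12.0%). Trim28, the corepressor itself, rose from 72.7, 68.7 and 75.9 CPM in Ctl to 93.2, 104 and 93.3 CPM in Li-KO, a log2 fold change of 0.42 ± 0.11 (adjusted p = 0.0419). Gatad2b, a subunit of the NuRD complex, fell from 55.8, 52.6 and 50.8 CPM to 28.6, 30.0 and 36.7 CPM (-0.74 ± 0.13, adjusted p = 0.0139). Fam208a, which encodes the HUSH complex subunit TASOR, fell from 146, 116 and 122 CPM to 66.0, 72.8 and 92.4 CPM (-0.73 ± 0.16, adjusted p = 0.0239). Atf7ip, a partner of SETDB1, fell from 72.5, 92.0 and 76.3 CPM to 59.5, 59.1 and 53.8 CPM (-0.48 ± 0.13, adjusted p = 0.0436). In each of these 4 genes the groups did not overlap. Of the 6 fits without a library, Trim28 kept its call in 1, Gatad2b in 4, Fam208a in 1 and Atf7ip in 0. Their adjusted p rose to up to 0.161, 0.066, 0.0992 and 0.191.

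The floor in every library left out genes that were high in 1 group and low in the other. Zfp125, just outside it, had 371, 562 and 625 raw fragments in Ctl, against 97, 104 and 111 in Li-KO. Zfp939 had 148, 186 and 167 against 98, 125 and 141, and Zfp366 175, 130 and 103 against 130, 99 and 162. Just inside it, Zfp418 had 125, 131 and 144 against 100, 117 and 132, Zfp964 221, 116 and 122 against 100, 106 and 191, and Zfp59 155, 185 and 135 against 101, 139 and 151. Of the 189 genes under the floor, 124 were tested, 65 did not pass the filter on low counts, and 25 of the 189 had 0 fragments in all libraries. The 124 had a median log2 fold change of -0.48, with 98 (79.0%) below 0, against -0.12 over the members. Of the 124, 5 were lower and 2 higher (5.65% called, against 12.0% of all genes tested). The floor itself bears on that median, and its difference from the members was not tested.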

How the data were processed

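The submitters' processing notes name STAR, Cufflinks, Cuffdiff and the mm10 build; the sources used here give no versions, annotation, strand setting or rule for multiply matching fragments. The deposited table gives, per the file headers, raw fragments as estimated counts (3.29% of them not whole) and FPKM values that the authors scaled for length and depth. Its condition and replicate names were matched to the sample titles. The labels name a stranded total RNA kit. Cuffdiff skipped 77 genes in some library, 0 of them Zfp genes, and these were left out of totals and tests.

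Counts were rounded, filtered with filterByExpr (minimum count 10, minimum total 15; 16533 genes), scaled by TMM and tested with edgeR 4.0.16 (R 4.3.3), by its two-sided quasi-likelihood test on the group alone. Adjustment was by Benjamini-Hochberg over all genes tested, and adjusted p under 0.05 made a call. CPM use the scaled totals. SE were derived from each fold change and F value. IDs were matched to symbols for 48051 of 48432 genes. Alternatives used DESeq2 1.42.0, DESeq2 size factors, limma-voom and limma 3.58.1 on log2(FPKM + 0.1), no filter, a replicate block, each library left out, and other floors. On simulated data for Li-KO against Ctl (16533 genes) the main test recovered 53% of genes changed 2-fold and 78% of those changed 4-fold, with 14 false among 145 calls. The changed genes were a small random part of all genes tested, taken without the floor.

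Fingers and KRAB boxes were counted as patterns in translated GENCODE M21 coding sequences, used in place of the RefSeq proteins that had been planned. The KRAB pattern was adjusted on the protein sequences until it took known KRAB genes. Members and lists were chosen with earlier results of these data known. Named were the called members (up to 20 per direction, by smallest p), the 5 highest by FPKM, 3 genes on either side of the floor, Klf15, called genes of the TRIM28 list and, per role list, the 3 members with the smallest p. Replicate numbers were not taken as pairs, since the deviations of same-numbered libraries correlated at 0.02, 0.08 and 0.07, none over 0.1.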

Additional observations from a re-analysis of the deposited data

How the results depend on the processing

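Counts of calls moved with the test and more with single libraries, and the cause was not tested. With DESeq2, 8 Zfp genes were higher and 34 lower, 24 KRAB genes passed and 3116 of all genes passed. With limma on FPKM, 8 KRAB genes and 2 genes of the TRIM28 list passed, and 2 of that list passed with no filter on low counts. With the replicate block, 3 Zfp genes were higher and 30 lower, 24 of these 33 shared with the fit without the block, and 2 genes of the TRIM28 list passed; 4 of 6 libraries correlated best with the library of their own number in the other group. Over the fits that left out 1 library, 0 to 5 Zfp genes were higher, 3 to 43 lower, 1 to 28 KRAB genes passed, 0 to 5 genes of the TRIM28 list and 432 to 2549 of all genes, and the median of the Zfp genes was -0.20 to -0.05. Such fits have fewer samples. Floors of 50 or 200 fragments in each library, or a mean of 100, left the Zfp counts within 1.5 times, with medians of -0.16, -0.09 and -0.19 in place of -0.12. For 44 named genes, 374 of the values under the alternatives stayed on their side of the threshold, 137 lost the call, 17 gained it, and none changed direction. In simulation about 53% of 2-fold changes were found. The changed genes were few and drawn from all genes tested, also those with low counts, so this is not the share for the Zfp genes. Zfp genes that did not pass can still have changed.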

Other observations

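A further cluster on chromosome 17, between 32765496 and 33394641 (mm10), held 7 KRAB genes, of which 6 had a log2 fold change below 0 while Zfp870 rose. The median of the 7 was -0.42. The 9 members of the cluster on chromosome 6 between 47835661 and 48623227, 3 with the KRAB pattern, had a median of 0.06. On chromosome 7, between 27731389 and 27979171, all 5 members, KRAB genes, had log2 fold changes below 0, with a median of -0.28 and adjusted p of 0.213 or more. These groups were chosen after their values were seen.

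Across the 222 coding members, Spearman's rho of the log2 fold change was -0.11 with the number of fingers. Across all 223 it was -0.17 with exonic length and 0.16 with mean FPKM. Genes are not independent replicates, the 6 libraries are shared, and these values are descriptions only. Of the 108 members with more than 10 fingers, 12 fell and 2 rose (13.0%), of the 66 with 6 to 10, 6 fell and 3 rose (13.6%), and of the 48 with 5 or fewer, 5 fell and 0 rose (10.4%), each near the 12.0% of all genes tested.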
